A study of Mus musculus with 24 samples.

Results

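Genes of the cell cycle and of DNA replication, 54 in number, were described across all the RNA sequencing libraries of a study of TET and TDG, enzymes that oxidise 5-methylcytosine and excise its oxidised forms. The genes were chosen by symbol, as 54 of the 23420 gene symbols in the deposited count files, and all of them were present. They fell into groups by role, of 12 genes for origin licensing and initiation, 4 for nucleotide supply, 10 for the G1 and S cyclins, kinases and E2F factors, 8 for the mitotic cyclins, kinases and FOXM1, 11 for the kinetochore, spindle checkpoint and anaphase-promoting complex (APC/C), and 9 for the spindle, cytokinesis and mitotic chromosomes.

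The 24 libraries formed 10 groups of C57BL/6 mice aged 8 to 16 weeks. TDG iKO mice were Tdg fl/fl and carried Cre-ERT2 and a Rosa26-H2B-EGFP/GPI-mCherry reporter behind a LoxP-STOP-LoxP cassette, and TET iTKO mice had floxed alleles (fl/fl) of each of Tet1, Tet2 and Tet3, with Cre-ERT2 and a Rosa26-YFP reporter of the same kind. Tamoxifen was given to Cre-carrying and control mice alike. Th2 cells (4 libraries each of WT and TDG iKO) came from naive CD4+ T cells of spleen and lymph nodes that were stimulated through CD3 and CD28 for 2 days with IL-4 and anti-IFN-γ, then expanded in IL-2 for 3 days. Bone marrow-derived macrophages (BMDMs) were grown with M-CSF and sampled at 0 h or after 6 h of KLA, a lipid A that activates Toll-like receptor 4, with 2 libraries for each genotype and time. They formed a cohort of WT and TDG iKO mice, called the Tdg cohort here, and one of WT and TET iTKO mice, called the Tet cohort. Reporter-positive naive T cells were sorted for the Th2 cultures, and the share of BMDMs that kept undeleted alleles was not analysed here.

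A cell that divides first loads MCM helicases onto replication origins with ORC, CDC6 and CDT1, then fires these origins in S phase, and finally separates its chromosomes on a spindle. D-type cyclins with CDK4 and CDK6 begin this sequence by phosphorylating the RB protein, which frees E2F factors to switch on S-phase genes. A later wave of mitotic genes is switched on through B-MYB, FOXM1 and the MuvB complex. T cells divide many times after activation, whereas macrophages grown in M-CSF divide slowly and leave the cycle when Toll-like receptors are engaged.

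Promoter sequences of 6 genes are shown because their levels behaved in contrasting ways in the comparisons that follow. Each is the stretch of 180 bases upstream of a RefSeq transcription start, read 5′ to 3′ on the strand of the gene. The build is GRCm38.p6, a different build from the mm9 of the counts. Capitals mark matches, on either strand, to the E2F letters TTTGGCGC, TTTCCCGC, TTTCGCGC or TTTGCCGC, to the CHR letters TTTGAA or TTCGAA, and to CCAAT, where neighbouring matches can run together. Mcm6 (chr1:128359706-128359885, minus strand) and Cdc6 (chr11:98907971-98908150, plus strand) serve licensing. Cdk1 (chr10:69352913-69353092, minus strand) encodes the mitotic kinase, Ube2c (chr2:164769749-164769928, plus strand) the APC/C ubiquitin-conjugating enzyme and Top2a (chr11:99024190-99024369, minus strand) topoisomerase IIα. E2f1 (chr2:154569427-154569606, minus strand) held no match in the stretch shown. By the GENCODE gene ends, the E2f1 and Cdc6 stretches lay inside these genes, downstream of the outermost start. Sequence before that start was not searched for either gene.
Mcm6: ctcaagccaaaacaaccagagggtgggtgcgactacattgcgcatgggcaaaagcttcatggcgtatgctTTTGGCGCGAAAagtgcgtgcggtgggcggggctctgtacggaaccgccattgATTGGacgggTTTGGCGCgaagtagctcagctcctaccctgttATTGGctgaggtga
Cdc6: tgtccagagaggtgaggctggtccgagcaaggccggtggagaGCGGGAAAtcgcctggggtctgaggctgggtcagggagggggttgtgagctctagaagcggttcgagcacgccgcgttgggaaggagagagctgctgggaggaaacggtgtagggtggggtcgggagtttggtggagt
Cdk1: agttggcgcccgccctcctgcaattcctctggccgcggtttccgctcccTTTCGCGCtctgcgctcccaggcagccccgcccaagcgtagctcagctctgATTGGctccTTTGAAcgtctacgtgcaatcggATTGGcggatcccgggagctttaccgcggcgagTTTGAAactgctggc
Ube2c: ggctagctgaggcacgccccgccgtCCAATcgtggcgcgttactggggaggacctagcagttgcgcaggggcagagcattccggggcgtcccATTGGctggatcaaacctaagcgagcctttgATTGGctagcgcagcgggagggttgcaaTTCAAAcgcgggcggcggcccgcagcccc
Top2a: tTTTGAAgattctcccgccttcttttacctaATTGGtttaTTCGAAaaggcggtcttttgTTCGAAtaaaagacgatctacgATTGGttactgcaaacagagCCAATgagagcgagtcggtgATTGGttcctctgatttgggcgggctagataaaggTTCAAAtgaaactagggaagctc
E2f1: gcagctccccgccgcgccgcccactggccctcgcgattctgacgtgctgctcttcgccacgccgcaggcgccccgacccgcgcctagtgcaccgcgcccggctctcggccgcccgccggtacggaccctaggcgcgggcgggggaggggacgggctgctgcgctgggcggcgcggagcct

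In RefSeq windows of 300 bases (250 before to 50 after the start), 44 of the 54 genes had a window. The E2F letters were present for 10 of them (22.7%) against 2.6% of all 27025 genes with a window, and CHR together with CCAAT for 21 (47.7%) against 9.65%. The E2F matches lay mostly in licensing genes, 7 of 10, while none of the 18 kinetochore and spindle genes with a window held one. The CHR and CCAAT letters occurred together in 7 of 11 kinetochore genes and 6 of 7 spindle genes. These are matches of letters, not sites shown to be bound.

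Assigned counts ranged from 4982950 to 26657729 per library (median 14853861). Levels are given as TPM, counts scaled by exon length and by depth to a common total, so that genes can be compared. Th2 replicates 3 and 4 of each genotype differed by little more than counting noise (mean chi-square per gene of 1.34 for TDG iKO and 1.51 for WT, against 21.3 to 218 for other Th2 pairs) and were summed to count as 1 sample, leaving n = 3 per Th2 genotype. Whether the other replicates were separate animals is not stated in the labels, and p-values measure the spread between these samples. The targeted genes did not check the genotype labels. Tdg had 0 to 7 counts in every library, WT included, and Tet2, counted over the whole gene, was not lower in TET iTKO (15.2 to 16 TPM) than in WT BMDMs (10.4 to 12.3 TPM) at 0 h. Of the 7 CD4 T and Th2 markers, all were at 1 TPM or more in every Th2 library, with a sum of 2119 to 3328 TPM, while in BMDMs they summed to 5.19 to 18 TPM with Cd3e and Gata3 at 0 in several groups. All 7 macrophage markers were present in every BMDM library, and in Th2 cells they summed to 12.8 to 57.2 TPM with Csf1r at 0.

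The cell cycle genes stood far higher in Th2 cells than in BMDMs. Their summed level was 7439 to 8370 TPM in the 8 Th2 libraries, 561 to 1800 TPM in the 8 BMDM libraries at 0 h and 333 to 883 TPM in the 8 at 6 h. No BMDM library reached the lowest Th2 library for any of the 6 role groups. The mitotic cyclin group, for example, summed to 987 to 1183 TPM in Th2 cells, 14.9 to 112 TPM in BMDMs at 0 h and 9.65 to 86.0 TPM at 6 h, whereas the licensing group summed to 1579 to 2420, 195 to 631 and 113 to 237 TPM. In bulk RNA, fewer dividing cells and less RNA per dividing cell cannot be told apart.

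**Figure D1:**
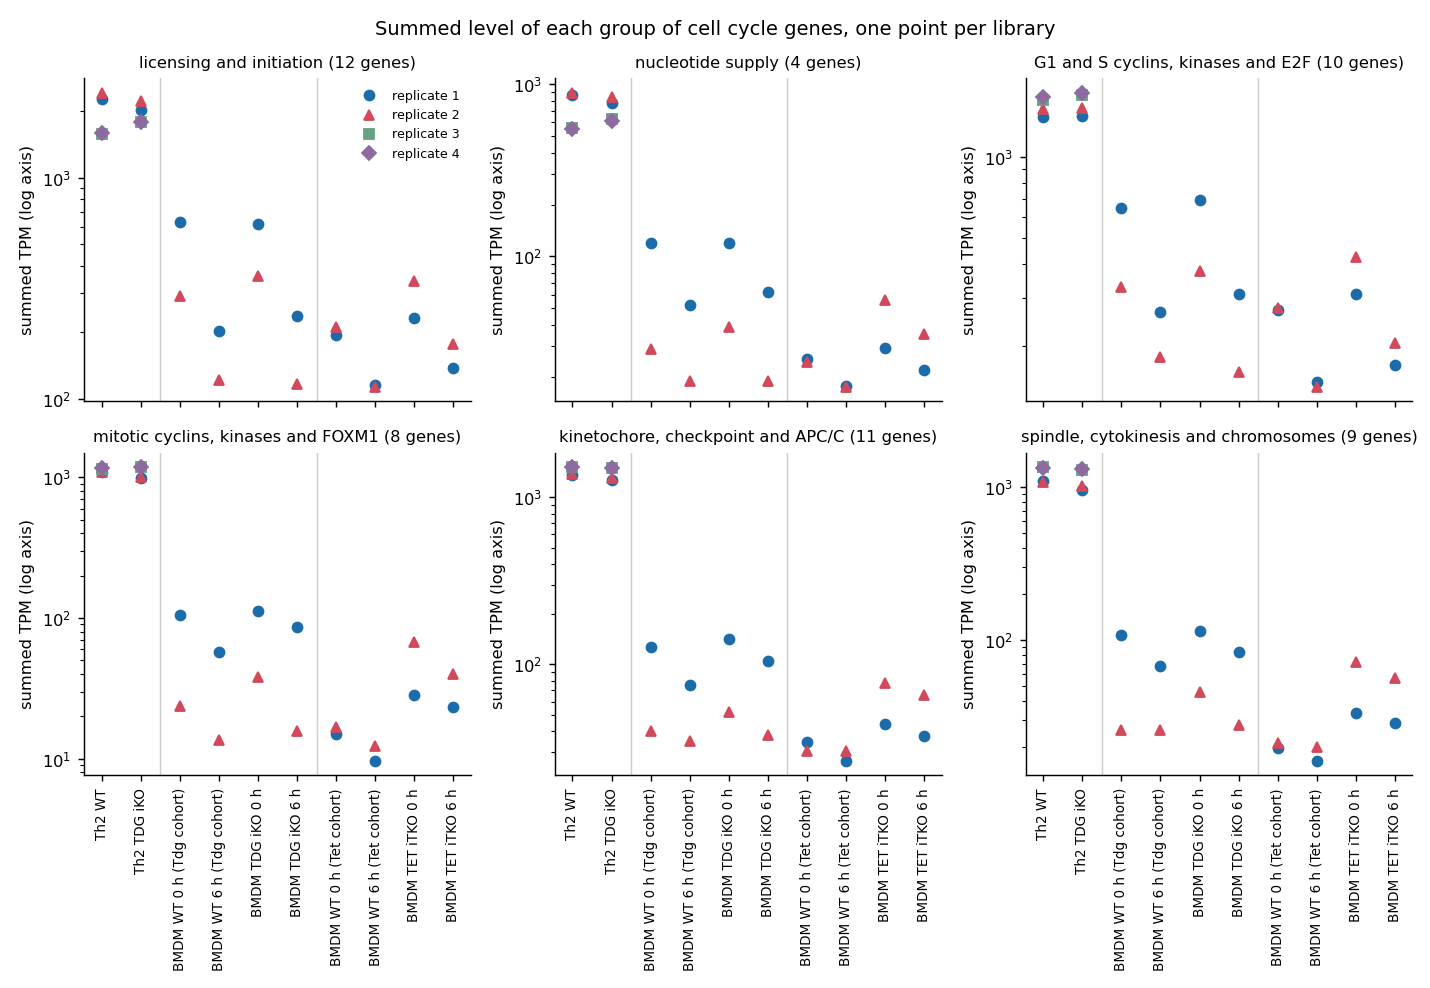
Summed TPM (log axis) of each of the 6 role groups in each of the 24 libraries, one point per library with the replicate number as colour and shape. All Th2 points lie above all BMDM points, replicate 1 lies above replicate 2 throughout the Tdg cohort, and TET iTKO replicate 2 lies above TET iTKO replicate 1.

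The libraries were not uniform within a cell type. Th2 replicates 3 and 4 held less of the licensing group (1579 to 1789 TPM) than replicates 1 and 2 (2028 to 2420 TPM), and less of the nucleotide supply group (553 to 624 against 780 to 888 TPM), but more of the spindle group (1297 to 1353 against 963 to 1101 TPM), in both genotypes. In the Tdg cohort the 2 replicates stood well apart, with summed levels in WT at 0 h of 1737 TPM in replicate 1 and 741 TPM in replicate 2, and in TDG iKO of 1800 and 911 TPM. The summed level of 9 myeloid progenitor and neutrophil markers at 0 h was also higher in replicate 1 of this cohort, at 689 against 172 TPM in WT and 2061 against 122 TPM in TDG iKO; their part in the result was not tested. WT replicates of the Tet cohort were close, at 561 and 578 TPM at 0 h.

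Wild-type Th2 cells were then tested against WT BMDMs at 0 h (n = 3 against 4 libraries, the mean of both cohorts) to ask which members differ between a dividing and a slowly dividing cell type. Of the 54 members, 51 were higher in Th2 cells, 1 was lower and 2 were not called (DESeq2, Benjamini-Hochberg adjusted p under 0.05). Of all 13682 genes tested, 55.9% were called in this comparison. The median log2 fold change was 4.04 over the members and 0.16 over all genes tested.

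Median log2 fold changes were 4.77 in the mitotic cyclin group, 4.65 in the kinetochore group, 4.37 in the spindle group, 4.26 in the nucleotide supply group, 2.67 in the licensing group and 2.37 in the G1 and S group. Ube2c, which feeds ubiquitin to the APC/C, was at 200, 205, 261 and 261 TPM in WT Th2 replicates 1 to 4, 10.9 and 4.89 TPM in WT BMDMs of the Tdg cohort and 1.3 and 1.13 TPM in those of the Tet cohort, a log2 fold change of 5.62 ± 0.28 (SE). Birc5, the survivin subunit of the chromosomal passenger complex, rose by 5.56 ± 0.28 and the spindle protein gene Nusap1 by 5.54 ± 0.39 on the log2 scale. Among the mitotic kinases and cyclins the largest differences were those of Plk1 (5.47 ± 0.58) and Ccnb2 (5.41 ± 0.43). Every one of the 28 members of the 3 mitotic groups was higher in Th2 cells.

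Mki67 and Top2a are often used as markers of proliferation. Mki67, whose protein coats mitotic chromosomes, stood at 246, 226, 323 and 321 TPM in WT Th2 cells, 12.1 and 4.96 TPM in the Tdg cohort and 2.81 and 2.84 TPM in the Tet cohort (log2 fold change 5.22 ± 0.27). Top2a, which untangles replicated DNA, stood at 328, 314, 399 and 386 TPM in Th2 cells, 30.4 and 5.28 TPM, and 2.82 and 3.61 TPM (5.02 ± 0.42). For Mki67, Top2a and Ube2c the lowest Th2 library was above the highest BMDM library.

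Cdk1, the mitotic kinase whose promoter held E2F, CHR and CCAAT matches, stood at 124 to 132 TPM in WT Th2 cells, 23.9 and 8.12 TPM in the Tdg cohort and 4.03 and 4.15 TPM in the Tet cohort (3.47 ± 0.30).

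Genes of S phase differed over a wider range. Rrm2, the regulated subunit of ribonucleotide reductase, was at 449, 461, 282 and 280 TPM in Th2 cells against 38.5 and 6.27 TPM and 1.22 and 4.50 TPM in BMDMs (5.15 ± 0.52), and thymidine kinase, Tk1, had a log2 fold change of 4.74 ± 0.50. In the licensing group the largest values belonged to Orc1 (4.62 ± 0.55) and to Cdc45 and Cdc6 (4.10 each). The helicase subunit Mcm5 stood at 360, 407, 225 and 234 TPM in Th2 cells, 87.8 and 26.2 TPM in the Tdg cohort and 12 and 14.2 TPM in the Tet cohort (3.11 ± 0.36). Mcm6 differed less, by 1.5 ± 0.28, and Gins2 by 1.53 ± 0.38.

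Cdt1, the MCM loader, was not called (0.46 ± 0.24), with 122, 110, 145 and 147 TPM in Th2 cells and 51.6 to 70.1 TPM in WT BMDMs at 0 h. E2f1 was the other member not called (0.43 ± 0.25, adjusted p of the DESeq2 test above the threshold), at 49.0 to 60.5 TPM in Th2 cells and 19.6 to 41.0 TPM in the BMDMs. E2f2, a second activator E2F, was higher in Th2 cells by 3.78 ± 0.44. In TPM the WT Th2 and WT BMDM libraries did not overlap for either gene, while the DESeq2 test scales libraries by size factors.

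**Figure D2:**
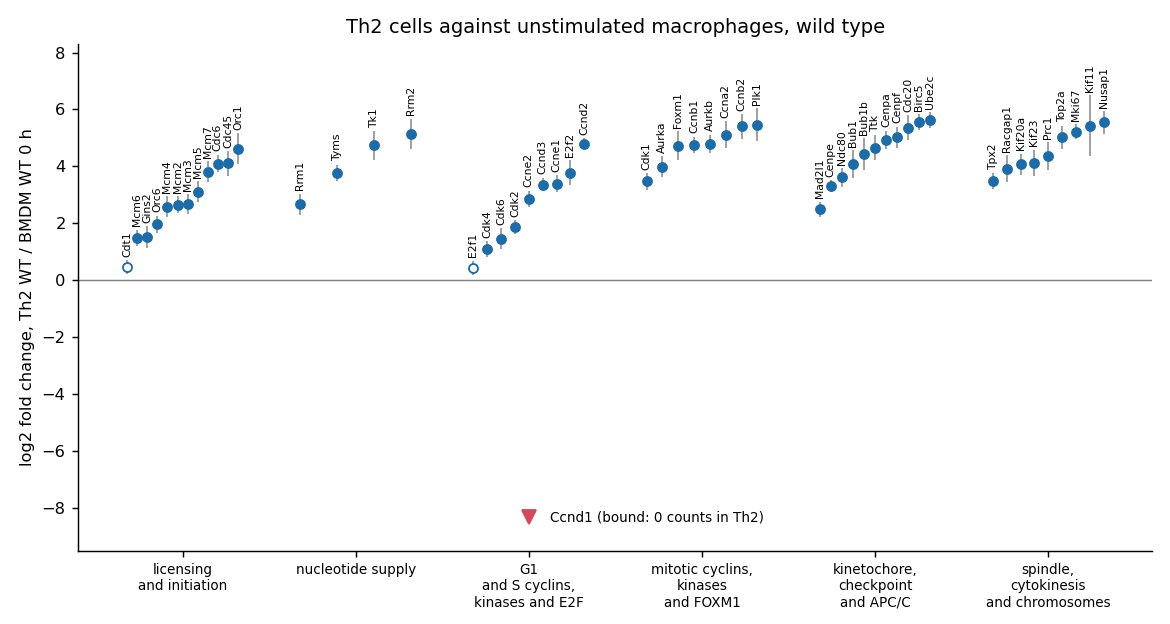
Log2 fold change (y axis, bars are 1 SE) of each member in WT Th2 cells over WT BMDMs at 0 h, by role group, with filled points for members past the threshold and open points for Cdt1 and E2f1, which were not. Ccnd1, with 0 counts in Th2 cells, is drawn as a triangle at its bound of at least 322-fold lower.

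The cell types used different D-type cyclins. Ccnd1 (mm9 chr7:152115836-152125774, minus strand) had 0 counts in all 8 Th2 libraries and 90.5 to 322 TPM in WT BMDMs at 0 h. With a floor of 3 counts per library, it was at least 322-fold lower in WT Th2 cells. Its exons overlap those of Oraov1 on the opposite strand by 818 bases, and the strand setting of the counting is not given in the sources used here. Ccnd2 stood at 289, 305, 280 and 277 TPM in WT Th2 cells, 18.6 and 13.8 TPM in the Tdg cohort and 3.06 and 3.24 TPM in the Tet cohort (log2 fold change 4.79 ± 0.20). Ccnd3 stood at 398, 421, 567 and 596 TPM in WT Th2 cells against 20.2 to 57.1 TPM in WT BMDMs (3.36 ± 0.23). Of the summed TPM of the 3 D cyclins, Ccnd3 made up 58 to 68.2% and Ccnd2 31.8 to 42% in WT Th2 cells, whereas Ccnd1 made up 75.8 to 81.0% in WT BMDMs at 0 h. The partner kinases differed less, Cdk4 by 1.09 ± 0.27 and Cdk6 by 1.47 ± 0.36.

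**Figure D3:**
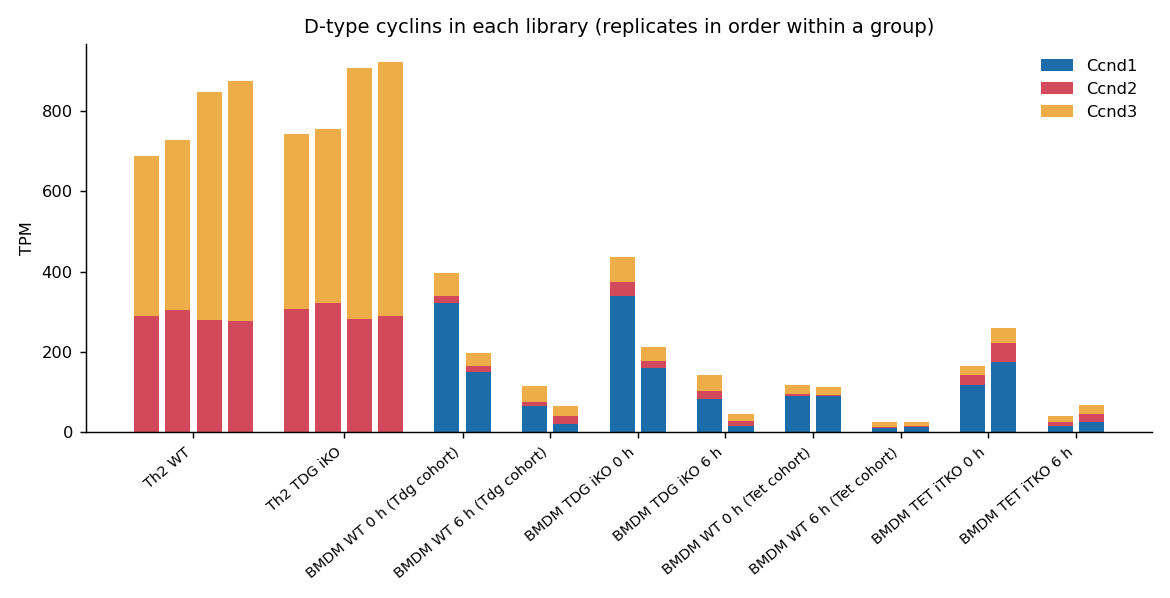
TPM of Ccnd1, Ccnd2 and Ccnd3 (stacked) in each library, with the replicates of a group side by side in order. Ccnd1 is absent from every Th2 bar and is the largest part of every BMDM bar at 0 h, and the Ccnd2 part is wider in TET iTKO than in WT BMDMs of the Tet cohort.

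Of 56 other cell cycle genes compared beside the members, 39 were higher and 1 was lower in Th2 cells (median log2 fold change 1.67). Leaving out genes whose normalised count averaged under 50, the largest were Cdc25c (4.74), Mybl2, which encodes B-MYB (4.6), Cdc25b (4.37) and the repressor E2f7 (3.85). The single lower gene was E2f5 (-1.32 ± 0.37). Myc was higher by 3.26 and the CDK inhibitor Cdkn1b by 2.38, whereas Cdkn1a (-0.43) and the sliding clamp Pcna (-0.10) were not called. For Pcna 31% and for Mybl2 27.5% of 50-base windows of their exons also occur elsewhere in the genome, so that their counts are uncertain.

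The size of these differences depended on the macrophage cohort. Against the Tdg cohort alone, 49 members were higher and 1 lower with a median log2 fold change of 3.03. Against the Tet cohort alone 53 were higher and 1 lower with a median of 4.70. Shares and medians over all genes in these fits are not given here, so this dependence is not a result about the members alone. By promoter letters, the 10 members with E2F matches had a median of 3.29 the 18 with CHR and CCAAT but no E2F match a median of 4.79, and the other 16 with a window a median of 3.38.

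After 6 h of KLA, fits without the replicate number as a block called few members in BMDMs, at shares near or below those of all genes. With the block, 16 members were called in WT and 12 in TDG iKO of the Tdg cohort. In the Tet cohort the block gave 15 in WT and 14 in TET iTKO. The shares of all genes called with the block are not given here. Without the block, 5 members were called lower in each of the 4 comparisons, in WT and knockout cells of both cohorts. They were Mcm2, Mcm6, Cdt1, Ccnd1 and E2f2. The same held for 1.95% of the 11239 genes tested in all 4. The WT and knockout comparisons share no libraries. In the Tdg cohort these 5 were the only calls, 9.43% of the 53 members tested, in WT (median over members -0.75, 8.6% of all genes called) and in TDG iKO (median -0.48, 7.08% of all genes called). In the Tet cohort 9 members were lower and 3 higher in WT (22.6% of members and 24.1% of all genes called, median -0.44), and 7 were lower and 2 higher in TET iTKO (17% of members and 24.4% of all genes called, median -0.47).

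Ccnd1 fell most in the Tet cohort. It went from 91.6 and 90.5 TPM at 0 h to 11.6 and 12.2 TPM at 6 h in WT (-2.79 ± 0.21, adjusted p = 7.6e-39 by DESeq2), and from 117 and 176 to 15.5 and 25.7 TPM in TET iTKO (-2.72 ± 0.20). In the Tdg cohort it went from 322 and 150 to 64.7 and 21.5 TPM in WT (-2.45 ± 0.67) and from 339 and 159 to 84.1 and 15.2 TPM in TDG iKO (-2.15 ± 0.66). In each of the 4 comparisons both 6 h libraries were below both 0 h libraries. Its share of D cyclin TPM dropped with it, to 45.8 to 46.6% at 6 h in WT of the Tet cohort.

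E2f2 went from 7.73 and 8.07 to 1.98 and 1.57 TPM in WT of the Tdg cohort (-2.22 ± 0.48) and from 8.86 and 7.12 to 1.54 and 0.665 TPM in TDG iKO (-2.68 ± 0.49). It went from 3.36 and 3.95 to 0.861 and 0.905 TPM in WT of the Tet cohort (-1.91 ± 0.38) and from 4.69 and 4.29 to 1.46 and 1.28 TPM in TET iTKO (-1.62 ± 0.36). E2f1 differed in the same libraries by -0.28 (WT) and -0.32 (TDG iKO) in one cohort and by 0.11 (WT) and 0.19 (TET iTKO) in the other, none of them called.

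The licensing genes called lower were the helicase subunits Mcm2 and Mcm6 and their loader Cdt1. The Mcm6 promoter held 3 E2F matches, of which those at -110 and -106 from the start overlap on opposite strands. Mcm6 went from 167 and 73.4 to 42.5 and 25.6 TPM in WT of the Tdg cohort (-1.79 ± 0.44). It went from 46.5 and 49.5 to 20.4 and 20.2 TPM in WT of the Tet cohort (-1.09 ± 0.17). Cdt1 went from 68.6 and 70.1 to 23.2 and 29.6 TPM (-1.44 ± 0.40) and from 51.6 and 57.1 to 24 and 24.9 TPM (-1.01 ± 0.17) in the same groups. Mcm2 fell by 2.56 ± 0.60 and 0.91 ± 0.25 there. All 12 licensing genes had a negative log2 fold change in both WT comparisons.

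The knockout cells gave like values for these 3. In TDG iKO, Mcm2 fell by 1.78 ± 0.59, Mcm6 by 1.42 ± 0.44 and Cdt1 by 1.33 ± 0.40 on the log2 scale. In TET iTKO they fell by 1.19 ± 0.24, 1.24 ± 0.17 and 0.96 ± 0.17, and Mcm3 and Mcm4 were also called lower there (-0.64 and -0.63). Mcm5 was not called in any of the 4 (-1.40, -1.16, -0.49 and -0.63).

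Some members rose. Ccne1, the cyclin E that drives entry into S phase, went from 2.92 and 3.76 to 5.86 and 6.16 TPM in WT of the Tet cohort (0.99 ± 0.38) and from 2.15 and 4.59 to 7.16 and 7.55 TPM in TET iTKO (1.21 ± 0.38). The Tdg cohort gave unlike replicates for Ccne1, 12.2 and 5.73 TPM at 0 h and 5.44 and 11.7 TPM at 6 h in WT, with no call. Mad2l1, a spindle checkpoint protein, was higher in WT (0.66 ± 0.26) and TET iTKO (0.67 ± 0.26) of the Tet cohort. Tk1 was called higher in WT of the Tet cohort at a low level, 0.228 and 0.611 TPM at 0 h and 1.07 and 1.31 TPM at 6 h.

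The remaining calls in WT of the Tet cohort were falls of Ccnd3 (-0.68 ± 0.26), Cdk4 (-0.41 ± 0.13), Cdk6 (-0.84 ± 0.20) and the cytokinesis kinesin Kif23 (-2.51 ± 0.56). Mki67 was not called in any KLA comparison (0.02, -0.10, 1.23 and 0.11), nor was Top2a (-0.70, -0.35, -0.66 and -0.20). Both 6 h libraries lay below both 0 h libraries for 18 of 53 members in WT and 9 in TDG iKO of the Tdg cohort, where the same held for 23.8% and 22.6% of all genes counted. In the Tet cohort it held for 28 of 53 members in WT and 15 in TET iTKO, beside 33.5% and 32% of all genes counted. With each 6 h library set against the 0 h library of its own replicate number, both were lower for 39 members in WT and 45 in TDG iKO of the Tdg cohort (31.9% and 39.5% of all genes). Pairing is not stated for this cohort, but same-numbered libraries deviated together (r = 0.361 in WT and 0.815 in TDG iKO). In the Tet cohort, where the numbers were taken as pairs, this held for 31 members in WT and 38 in TET iTKO (39.6% and 39.5% of all genes).

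**Figure D4:**
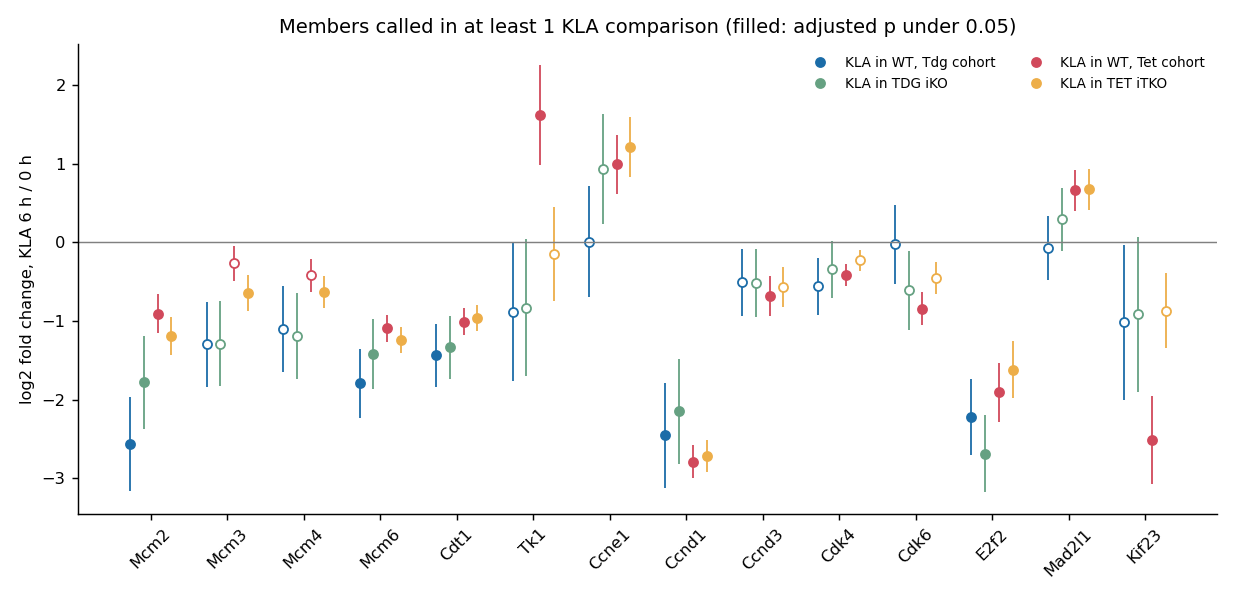
Log2 fold change at 6 h of KLA over 0 h (y axis, bars are 1 SE) for the 14 members called in at least 1 of the 4 comparisons, with filled points for calls. Mcm2, Mcm6, Cdt1, Ccnd1 and E2f2 are filled and negative in all 4 comparisons, and Ccne1 and Mad2l1 are filled and positive in the Tet cohort.

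Of the 56 other cell cycle genes, 1 rose and 6 fell in WT of the Tdg cohort, 1 and 5 in TDG iKO, 4 and 11 in WT of the Tet cohort, and 1 and 13 in TET iTKO. The mitotic entry inhibitor Wee1 (-1.98, -2.04, -2.31 and -1.52), the licensing inhibitor Gmnn (-2.15, -1.57, -1.21 and -1.15) and Pcna (-1.28, -1.05, -0.89 and -0.77) fell in all 4. Chek2 fell in WT of both cohorts (-1.44 and -0.91), Pola1 in both genotypes of the Tet cohort (-1.09 and -0.95), and Cdc25b in TDG iKO (-1.79) and in both genotypes of the Tet cohort (-1.70 and -1.58). Cdkn1a, which encodes the CDK inhibitor p21, rose in WT (0.85) and TDG iKO (0.93) of the Tdg cohort and in WT of the Tet cohort (0.54), and stood at 0.20 without a call in TET iTKO. Myc fell in WT of the Tet cohort (-1.42) and was not called in the other 3 (0.23, 0.11 and -0.19), and Cdkn1b was called in none (0.01 to -0.10).

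In the Tdg cohort the calls depended on the test, on a replicate block and on single libraries. With the replicate number as a block, 16 members were called in WT and 12 in TDG iKO, all lower. The shares of all genes called in those fits are not given here. By edgeR, E2f2 was the 1 member called in WT and in TDG iKO. Without WT replicate 2 at 6 h, 2 members were called in WT (Cdt1 and E2f2), and the same 2 remained in TDG iKO without replicate 1 at 0 h or without replicate 2 at 6 h. In the Tet cohort, same-numbered 0 h and 6 h libraries were taken as pairs. With these pairs as a block 14 rather than 9 members were called in TET iTKO, 2 higher and 12 lower. The share of all genes called in that fit is not given here. Leaving out 1 TET iTKO library moved the count between 5 and 14 (5 without replicate 1 at 6 h and 14 without replicate 2 at 6 h). In WT of the Tet cohort the count was 7 rather than 12 without replicate 2 at 0 h or without replicate 2 at 6 h, and 8 without either replicate 1 library.

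The interaction of KLA with genotype, the test of whether the response differed, called no member as fitted without pairing. The interaction of KLA with TDG called 0 members (0% of all genes; unadjusted p under 0.05 for 0 members by DESeq2) and that of KLA with TET called 0 (0.426% of all genes; unadjusted p under 0.05 for 2 members), and edgeR called 0 in both. Mki67 was called for KLA with TET in 2 other fits. Its interaction was -1.13 without a call as fitted, -1.005 (DESeq2 adjusted p = 0.0418) with the paired replicates as a block, where 2.48% of all genes were called, and -1.68 (DESeq2 adjusted p = 0.00596) without TET iTKO replicate 1 at 0 h, where 0.371% were. The 10 members with E2F letters in their RefSeq window had median log2 fold changes with KLA of -1.48, -1.31, -0.49 and -0.64. Those of the 18 with CHR and CCAAT and no E2F match were -0.70, -0.46, -0.53 and -0.50. Those of the other 16 were -0.56, -0.38, -0.21 and -0.21.

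Loss of TDG changed no member past the threshold. In Th2 cells 0 of 53 members tested were called (0% of all 15826 genes tested by DESeq2, with unadjusted p under 0.05 for 0 members), and 0 were called by edgeR and with the replicate numbers as a block. Their log2 fold changes ran from -0.31 to 0.16, with a median of -0.01. Mki67 stood at 182.5, 210, 293 and 296 TPM in TDG iKO against 246, 226, 323 and 321 TPM in WT (-0.17 ± 0.23), and Ccnb1 at 90.6, 100, 87.1 and 85.8 against 96.6, 110, 85.4 and 87.0 TPM. The genotypes overlapped for Mki67 and Ccnb1. Mki67 was lower in TDG iKO than in the WT library of the same number in each pair, and was not called with or without the block.

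In BMDMs without TDG, 0 of 54 members were called at 0 h (0% of all genes) and 0 at 6 h (0% of all genes), with unadjusted p under 0.05 for 0 members at either time by DESeq2. The spread between replicates of this cohort was wide, so that the standard error of Rrm2 was 1.39 and that of Top2a 1.25 on the log2 scale. Rrm2 stood at 38.5 and 6.27 TPM in WT and 40.4 and 7.78 TPM in TDG iKO at 0 h, so that replicates of a genotype differed far more than the genotypes. For genes of this spread the comparison as fitted, without a block, could not show a change of moderate size. Same-numbered WT and TDG iKO libraries deviated together (r = 0.32 at 0 h and 0.823 at 6 h). With the replicate number as a block, 0 members were called at either time. The shares of all genes called with that block are not given here. Ccnd2 was at 34.4 and 18.2 TPM in TDG iKO against 18.6 and 13.8 TPM in WT at 0 h (0.42 ± 0.41).

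TET iTKO BMDMs had higher levels of cell cycle genes than their WT, in large part through 1 of the 2 cultures. At 0 h, 15 of 53 members tested were higher and 0 lower (median over members 0.97, over all genes 0.01; 7.5% of all genes called). At 6 h, 14 of 53 were higher and 0 lower (median 0.84; 6.58% of all genes called). At both times 10 members were called, namely Mcm7, Cdc6, Ccnd1, Ccnd2, Ccna2, Ccnb1, Plk1, Cenpf, Nusap1 and Prc1, out of 19 called at either, whereas 1.81% of the 11634 genes tested at both times were called higher at both and 6.03% at either. Mcm2, Mcm4, Mcm5, Aurkb and Cenpe were called at 0 h alone, and Ttk, Ube2c, Kif23 and Top2a at 6 h alone.

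These calls fell without either WT library, and fell most without TET iTKO replicate 2. Without it 1 member, Ccnd2, was called at 0 h (median over members 0.46) and 0 at 6 h by DESeq2 (median 0.31), and without replicate 1 instead 25 and 17 were called. The calls over all genes also fell without replicate 2, to 2.4% of genes at 0 h and 2.48% at 6 h, and were 6.5% and 5.94% without replicate 1. Without WT replicate 1 or 2, 4 and 4 members were called at 0 h (3.6% and 3.96% of all genes), and 1 and 5 at 6 h (3.67% and 5% of all genes). Replicate 2 lay above replicate 1 of the same genotype for 52 of 53 members at each time, and for 50.2% of all genes counted at 0 h and 48.5% at 6 h. By edgeR, 7 members were called at 0 h and 3 at 6 h (6.01% and 4.68% of all genes).

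Replicate 1 pointed the same way for most members. By itself it lay above both WT libraries for 39 of 53 members at 0 h, where this held for 39.5% of all genes, and for 37 at 6 h, where it held for 37.7%. Both TET iTKO libraries lay above both WT libraries for 39 of 53 members at 0 h (27.5% of all genes) and 37 at 6 h (23.9% of all genes).

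Ccnd2 (mm9 chr6:127075797-127101066, minus strand) showed the largest difference at 0 h. It stood at 3.06 and 3.24 TPM in WT and at 25.9 and 47.9 TPM in TET iTKO at 0 h (3.47 ± 0.62, adjusted p = 1.8e-06 by DESeq2), and at 1.16 and 2.71 against 9.97 and 20.7 TPM at 6 h (2.86 ± 0.63). Its share of D cyclin TPM was 2.62 to 2.84% in WT and 15.7 to 18.4% in TET iTKO at 0 h. At 6 h the share was 4.68 to 10.2% and 24.4 to 30.2%. In each TET iTKO library Ccnd2 was above both WT libraries of its time, and without replicate 2 its difference was 2.97 (DESeq2 adjusted p = 0.00687) at 0 h and 2.21 (DESeq2 adjusted p = 0.0645) at 6 h. By edgeR the differences were 3.46 and 2.86, called at both times.

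Ccnd1 differed less, with 91.6 and 90.5 TPM in WT and 117 and 176 TPM in TET iTKO at 0 h (0.60 ± 0.20), and 11.6 and 12.2 against 15.5 and 25.7 TPM at 6 h (0.67 ± 0.21). Ccnd3 was not called at either time, at 22.1 and 20.2 TPM in WT and 22.7 and 37.0 TPM in TET iTKO at 0 h.

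In the licensing group, Mcm7 stood at 3.33 and 4.47 TPM in WT and at 5.17 and 16.2 TPM in TET iTKO at 0 h (1.38 ± 0.40), and at 2.04 and 2.99 against 5.48 and 7.58 TPM at 6 h (1.25 ± 0.41), where 16.1% of 50-base windows of its exons also occur elsewhere in the genome. Mcm5 stood at 12 and 14.2 TPM in WT and 20.4 and 34.2 TPM in TET iTKO at 0 h (0.98 ± 0.28). Cdc6, which loads MCM and whose RefSeq stretch is shown above, was called at both times at a low level, 0.777 and 0.397 TPM in WT and 1.48 and 3.04 TPM in TET iTKO at 0 h. Rrm2 had 1.22 and 4.50 against 4.35 and 15.7 TPM at 0 h and was not called (1.72 ± 0.95).

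Of the mitotic genes, Ccna2, the cyclin of S phase and early mitosis, stood at 1.59 and 1.53 TPM in WT and at 4.31 and 12.7 TPM in TET iTKO at 0 h (2.37 ± 0.50), and at 0.727 and 1.53 against 3.60 and 7.89 TPM at 6 h (2.23 ± 0.52). Ccnb1, the mitotic cyclin B1, stood at 1.04 and 1.42 against 2.33 and 5.61 TPM at 0 h (1.61 ± 0.47), and 30.8% of 50-base windows of its exons occur elsewhere in the genome. Prc1, which bundles the midzone of the spindle, stood at 0.514 and 0.862 against 1.69 and 3.56 TPM at 0 h (1.84 ± 0.46). Cenpe, the kinetochore motor, rose by 0.93 ± 0.32 at 0 h.

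At 6 h the cytokinesis kinesin gene Kif23 stood at 0.345 and 0.483 TPM in WT and 1.46 and 3.40 TPM in TET iTKO (2.44 ± 0.56), and Top2a at 1.87 and 1.79 against 5.95 and 13.3 TPM (2.27 ± 0.71). Mki67 was at 2.81 and 2.84 TPM in WT and 4.76 and 13.3 TPM in TET iTKO at 0 h without a call (1.60 ± 0.57, adjusted p = 0.062 by DESeq2). In TPM, both TET iTKO libraries were above both WT libraries at 6 h for Kif23, Top2a and Mki67. For Mki67 this was narrow, at 5.39 and 6.55 TPM in WT and 6.93 and 11.2 TPM in TET iTKO. On counts scaled by size factors, Mki67 in TET iTKO replicate 1 was not above WT replicate 2. E2f1 had log2 fold changes of -0.18 at 0 h and -0.09 at 6 h, neither called. Even TET iTKO replicate 2 at 0 h, with a summed level of 1040 TPM, lay far below the Th2 libraries and below replicate 1 of the Tdg cohort (1737 and 1800 TPM).

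**Figure D5:**
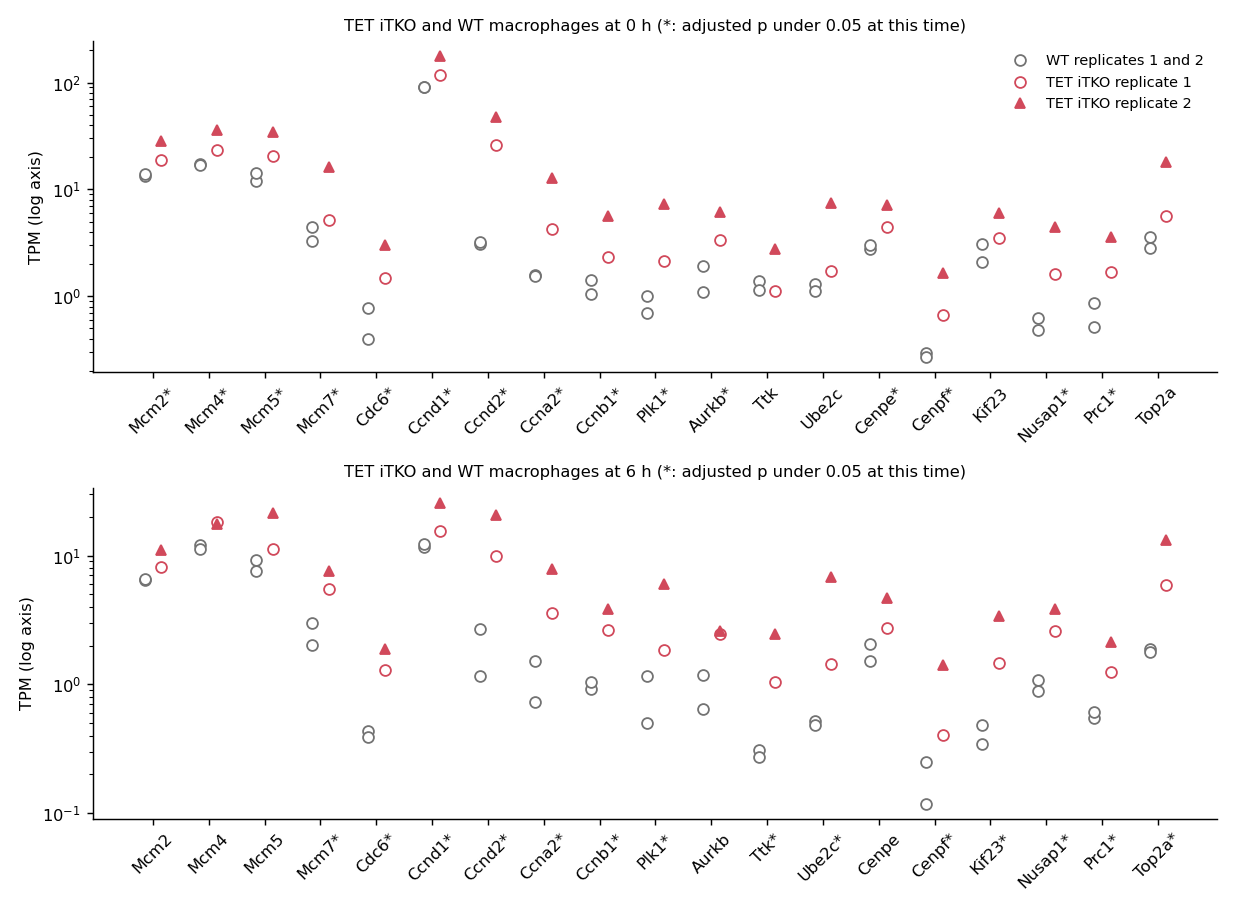
TPM (log axis) in each Tet cohort library of the 19 members called higher in TET iTKO at 0 h or 6 h, with WT replicates as grey circles, TET iTKO replicate 1 as open red circles and replicate 2 as filled triangles. The triangles lie above the open circles except for Mcm4 at 6 h, and asterisks mark the 15 calls at 0 h and the 14 at 6 h.

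Some markers of other cells were also higher in TET iTKO. The 9 myeloid progenitor and neutrophil markers summed to 152 to 232 TPM in WT and 375 to 681 TPM in TET iTKO at 0 h, and to 192 to 198 and 413 to 561 TPM at 6 h. S100a8 and S100a9 made up most of these sums. At 0 h, S100a8, S100a9, Cd34 and Camp were above both WT libraries in both TET iTKO libraries. For Mpo, Elane, Prtn3, Ctsg and Kit, TET iTKO replicate 1 lay below WT replicate 2 (Mpo at 6.08 against 12.2 TPM), and replicate 2 lay above both WT libraries. The 4 B cell markers summed to 2.09 to 2.43 TPM in WT and 9.28 to 30.6 TPM in TET iTKO at 0 h, and to 2.72 to 3.32 and 5.72 to 24.9 TPM at 6 h. Macrophage markers remained at a summed 36410 to 37295 TPM in TET iTKO and 43776 to 45505 TPM in WT at 0 h. The part of these cells in the result was not tested.

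Of the 56 other cell cycle genes, 2 were higher and 1 was lower in TET iTKO at 0 h, and 3 were higher and 2 lower at 6 h. E2f8 (1.57 and 1.63), a late S-phase repressor, and Mybl2 (1.88 and 2.94) were higher at both times. Mybl2 had few counts in WT, 10 and 18 at 0 h and 6 and 5 at 6 h, and 27.5% of 50-base windows of its exons occur elsewhere in the genome. Pcna was lower at both (-0.56 ± 0.11 and -0.44 ± 0.11). At 6 h Myc was higher (1.22 ± 0.32) and Cdkn1a lower (-0.42 ± 0.13). At 0 h Myc (-0.02) and Cdkn1a (-0.07) were not called, and Cdkn1b was called at neither time (0.21 and 0.14).

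The TET effect was compared with the TDG effect in a single fit of the 16 BMDM libraries, as the difference between the TET iTKO and TDG iKO contrasts. Ccnd2 was the only member called in this fit by DESeq2, without a block. Its effects differed by 3.06 ± 0.66 at 0 h (adjusted p = 0.0029 by DESeq2, 0.355% of all genes called). At 6 h they differed by 2.79 ± 0.67 (adjusted p = 0.046 by DESeq2, 0.0765% of all genes called). By edgeR 0 members were called at either time, with unadjusted p under 0.05 for 4 and 2, with DESeq2 differences in Ccnd2 of unchanged sign in every leave-one-out fit. The DESeq2 count was 0 at both times without TET iTKO replicate 2, TDG iKO replicate 2 or Tet cohort WT replicate 1, and 0 also without Tet cohort WT replicate 2 at 0 h and without Tdg cohort WT replicate 2 at 6 h. It was 2 at 0 h without replicate 1 of the Tdg cohort WT or of TDG iKO. The median difference over the members was 1.00 at 0 h and 0.77 at 6 h.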

How the data were processed

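Per the study's methods, polyA-selected directional libraries were sequenced as paired 50-bp reads on HiSeq or NovaSeq instruments, aligned to mm9 with HISAT2 and counted per gene by the authors with HTSeq-count, which does not assign pairs that map to several places. The deposited values are raw counts per gene symbol for 24 libraries. The annotation, the strand setting and the sequencer of each library are not given in the sources used here. The submitters' processing notes name DESeq2 1.30.0, which the authors used after counting. The 5 tallies of unassigned pairs in each file were left out.

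All genes were tested with DESeq2 1.42.0 in R 4.3.3 (Wald test, unshrunken log2 fold changes, Benjamini-Hochberg adjusted p under 0.05 over all genes tested). Each BMDM cohort of 8 libraries was fitted together, Th2 knockouts on their own, and Th2 WT against the mean of both cohorts' WT 0 h libraries. Th2 replicates 3 and 4 were summed. TPM was computed from the counts and GENCODE vM1 exon lengths (21259 of 23420 symbols, all 54 members). Counts of libraries that do not overlap used genes whose normalised count averaged 10 or more. Members and lists were chosen with earlier results of these data known. The genes named were a fixed set of 10, and the called members with the largest changes in each role group among genes whose normalised count averaged 50 or more, or all where 8 or fewer passed; Cdc6, Ube2c, Cdk1, Tk1 and Cdt1 were added where sequences or low levels are discussed. Of the other cell cycle genes, Cdkn1a, Cdkn1b, Pcna, Myc and up to 4 with the largest changes were named.

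Same-numbered Th2 libraries deviated together (r = 0.51, 0.733 and 0.919), as did same-numbered 0 h and 6 h libraries of the Tet cohort (r = 0.484 in WT and 0.453 in TET iTKO). These numbers were taken as pairs. Same-numbered 0 h and 6 h libraries of the Tdg cohort also deviated together (r = 0.361 in WT and 0.815 in TDG iKO). The sample titles give a replicate number and no animal in either cohort, and the reported fits used no block. Alternatives were edgeR 4.0.16 (quasi-likelihood, TMM), TMM factors in DESeq2, a filter of 10 counts in 2 libraries, replicate blocks, only the 4 libraries compared, and leaving out each library. On simulated counts, DESeq2's share of false calls exceeded its nominal level in each fit, and edgeR's counts are given beside the results they changed. Floors cover counting error only.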

Additional observations from a re-analysis of the deposited data

Results flagged for a closer look

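The effect of the knockout on Ccnd2 in BMDMs differed between TET iTKO and TDG iKO, by 3.06 on the log2 scale at 0 h (DESeq2 adjusted p = 0.0029) and by 2.79 at 6 h (adjusted p = 0.046). Both TET iTKO libraries were above both WT libraries at each time, while edgeR gave differences of 3.03 and 2.79 with adjusted p of 0.349 and 0.833. Over the DESeq2 fits that left out 1 library, the differences ran from 2.55 to 3.54 at 0 h and from 2.14 to 3.54 at 6 h.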

How the results depend on the processing

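Of the alternatives for counts of members called, 109 stayed within 1.5 times the reported count and 40 did not. By edgeR the counts were 1 and 1 for KLA in WT and TDG iKO of the Tdg cohort, 7 and 3 for TET iTKO at 0 h and 6 h, and 0 and 0 for the TET effect minus the TDG effect. With the replicate number as a block, 16 and 12 members were called for KLA in WT and TDG iKO of the Tdg cohort, where the numbers are shared but pairing is not stated (r = 0.361 and 0.815). With the same block 14 were called for KLA in TET iTKO, 1 (Mki67) for the KLA by TET interaction, and 8 and 2 for the TET effect minus the TDG effect at 0 h and 6 h. For TET iTKO against WT, whose numbers do not pair the libraries (r = 0.0208 and 0.0526), the block gave 20 and 16, and it changed no other call count by over 1.5 times. With Th2 replicates 3 and 4 as separate libraries and the block, 1 member was called for TDG iKO in Th2 cells, and with those replicates alone 17 (15 higher, 2 lower), where Mcm5 (0.20) and Rrm2 (0.18) had the opposite sign to the reported values; these libraries differ by little more than counting noise. Leaving out 1 library at a time gave 52 to 53 members for Th2 against BMDM, 2 to 7 and 2 to 5 for KLA in WT and TDG iKO of the Tdg cohort, 7 to 8 and 5 to 14 in WT and TET iTKO of the Tet cohort, 0 to 1, 0 to 0 and 0 to 0 for TDG iKO in BMDMs at 0 h, at 6 h and in Th2 cells, 1 to 25 and 0 to 17 for TET iTKO at 0 h and 6 h, 0 to 0 and 0 to 1 for the KLA by TDG and KLA by TET interactions, and 0 to 2 and 0 to 1 for the TET effect minus the TDG effect. For the fits with a block and those on Th2 replicates 3 and 4, shares of all genes called are not given, except for the KLA by TET interaction. Those counts are therefore not results about the members alone. The cause of these changes was not tested. The 2 to 4 libraries per group limit these counts.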
